A study of Homo sapiens with 58 samples.

Results

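Chromatin accessibility at 10 genes of chondroitin sulfate synthesis and sulfation was examined in human cranial neural crest cells (CNCCs) in which the level of the transcription factor SOX9 was titrated. The genes were XYLT1, CSGALNACT1, CHSY1, CHSY3, CHST3, CHST11, CHST15, SLC26A2, PAPSS1 and PAPSS2. Their regulatory elements (REs, regions of reproducible ATAC-seq signal) were taken as all rows of the count table whose midpoint lay inside the gene body or within 100,000 bp of a GENCODE v44 transcript start site. This gave 226 of 151,457 REs, on coordinates of hg38. There were 36 REs at CHST11, 32 at XYLT1, 32 at CHSY1, 31 at CHST15, 27 at CHST3, 21 at CSGALNACT1, 14 at CHSY3, 12 at SLC26A2, 11 at PAPSS1 and 10 at PAPSS2. Each RE is named by its gene and numbered along the strand of that gene. The rule uses distance alone: 115 REs lay in a gene body and 111 outside, and for 64 the closest protein-coding start site belonged to another gene, including 18 of the 32 at CHSY1.

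ATAC-seq, an assay that tags accessible DNA with the Tn5 transposase, was run on CNCCs made in culture from the human embryonic stem cell line H9. In SOX9-tagged cells both alleles of SOX9 carry an FKBP12-F36V, mNeonGreen and V5 tag, and the small molecule dTAGV-1 brings the tagged protein to a ubiquitin ligase for degradation. The tagged lines are 2 clones, S9CC13 and S9CC47, and the wild-type (WT) cells are H9 without it. The dose series held 7 SOX9-tagged samples at each of 0, 0.5, 1.6, 5, 16 and 500 nM dTAGV-1 for 48 h (4 of S9CC13 and 3 of S9CC47), for which the labels give 100, 77.9, 51.7, 25.8, 8.14 and 0.95% of SOX9. WT cells at 0 and 500 nM for 48 h held 2 samples each, labelled with 115% of SOX9. The time course, in differentiations R4 and R5, held 2 samples of each genotype with vehicle for 24 h, with 500 nM for 3 h and with 500 nM for 24 h. All groups were kept in the same CNCC medium, and vehicle was DMSO.

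Chondroitin sulfate is a long sulfated sugar chain carried by core proteins such as aggrecan, and it gives cartilage matrix much of its charge and its capacity to hold water. XYLT1 starts the linker by adding xylose to a serine of the core protein, CSGALNACT1 adds the first N-acetylgalactosamine that commits the chain to chondroitin, and CHSY1 and CHSY3 extend it. CHST11 and CHST3 place sulfate on N-acetylgalactosamine at its 4-O and 6-O positions, and CHST15 adds a further sulfate to chains already sulfated at 4-O. SLC26A2 carries sulfate into the cell, and PAPSS1 and PAPSS2 turn it into the sulfate donor PAPS. SOX9 is the master regulator of cartilage formation and is also expressed in CNCCs, which give rise to facial cartilage and bone.

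The following sequences show the SOX cores in the member REs that responded most clearly. They are 200-base windows of the hg38 plus strand, 5′ to 3′, with the letters ACAAT, the core that SOX proteins recognise, and its reverse complement ATTGT in capitals. The first 5 were lower both after 3 h and after 48 h at 500 nM, in order of p at 48 h. CHSY1-RE27 belongs to the same series but holds no core, and no sequence is shown for CSGALNACT1. The last, CHST11-RE33, is shown because it was the member RE in which an ACAAT was followed by an ATTGT facing it within 3 to 5 bases. The windows lie at chr15:101091682-101091881 beyond the 3′ end of CHSY1, chr10:71981372-71981571 in an intron of CHST3, chr12:104535471-104535670 in an intron of CHST11, chr15:101108407-101108606 beyond CHSY1, chr10:124057833-124058032 in an intron of CHST15 and chr12:104728092-104728291 in an intron of CHST11.
CHSY1-RE31: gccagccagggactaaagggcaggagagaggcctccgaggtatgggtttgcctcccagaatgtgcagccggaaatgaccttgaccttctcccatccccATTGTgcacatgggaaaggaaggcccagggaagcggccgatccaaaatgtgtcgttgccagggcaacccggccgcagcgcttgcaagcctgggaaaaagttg
CHST3-RE17: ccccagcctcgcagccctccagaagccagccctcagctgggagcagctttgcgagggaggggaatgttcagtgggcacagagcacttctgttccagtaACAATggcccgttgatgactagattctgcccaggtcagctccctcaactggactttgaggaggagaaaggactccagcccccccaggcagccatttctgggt
CHST11-RE14: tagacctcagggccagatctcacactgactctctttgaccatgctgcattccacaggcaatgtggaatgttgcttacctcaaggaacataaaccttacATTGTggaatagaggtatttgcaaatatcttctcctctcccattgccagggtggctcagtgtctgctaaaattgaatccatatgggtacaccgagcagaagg
CHSY1-RE29: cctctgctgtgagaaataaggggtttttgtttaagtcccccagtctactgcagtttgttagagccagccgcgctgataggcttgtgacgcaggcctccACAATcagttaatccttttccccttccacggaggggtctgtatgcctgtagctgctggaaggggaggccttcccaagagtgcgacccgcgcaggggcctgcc
CHST15-RE18: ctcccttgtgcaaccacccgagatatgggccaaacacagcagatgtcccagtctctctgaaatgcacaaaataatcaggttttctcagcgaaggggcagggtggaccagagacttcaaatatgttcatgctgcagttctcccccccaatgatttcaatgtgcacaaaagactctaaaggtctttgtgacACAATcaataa
CHST11-RE33: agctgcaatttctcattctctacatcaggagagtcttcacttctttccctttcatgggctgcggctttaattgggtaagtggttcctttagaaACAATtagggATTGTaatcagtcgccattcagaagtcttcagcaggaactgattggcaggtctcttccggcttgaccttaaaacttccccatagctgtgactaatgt

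The core was common in all REs. Among 182 members of the common length of 501 bp, 81 (44.5%) held ACAAT on either strand, against 52.4% of all 123,778 REs of that length. Of the 13 such members lower at each of 3 h and 48 h, 10 (76.9%) held a core, and 72.1% of all REs in the same class did. A facing pair was in 0.178% of all REs of that length and in none of these members. CHST11-RE33, which is 802 bp long, held 3 cores, of which a pair faced each other across 5 bases. A match of these letters does not show binding.

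Library totals over all REs ran from 22,905,782 to 81,040,023 counts, and the median member RE held 45 to 198.5 counts in single samples, so the weakest REs named below rest on few reads. The promoters of 10 cranial neural crest genes, TFAP2A and TWIST1 among them, were open, with 31.7 to 121 CPM (read counts scaled to library size) per kb at 0 nM, and their summed level was 448 to 601 at 0 nM and 480 to 598 at 500 nM. Promoter REs of NANOG and ZFP42 were not among the REs, and those of POU5F1 and DPPA4 held 2.56 and 7.85 CPM per kb. The stem cell genes LIN28A and L1TD1 held 34.1 and 38.4, within the range of the crest promoters. Neural promoters held 4.33 to 37.5, chondrocyte promoters 5.58 to 63.1 and glial or melanocyte promoters 2.86 to 49.1. Open promoters were thus not limited to crest genes. Among markers of other cell types, 1 of 4 stem cell, 1 of 5 neural, 1 of 6 chondrocyte and 2 of 5 glial or melanocyte genes had lower promoter accessibility at 500 nM, and 1 chondrocyte gene (ACAN) and 2 neural crest genes (SOX9 and PAX3) had higher. The summed level of the 6 chondrocyte promoters was 120 to 199 CPM per kb at 0 nM and 110 to 181 at 500 nM, and that of the 5 glial or melanocyte promoters 71.1 to 109 and 53.5 to 95.7. The part of cell composition in the results was not tested, and in these bulk samples fewer cells of a type cannot be told apart from less accessibility per cell.

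Full depletion was compared first, 500 against 0 nM at 48 h. At the 10 loci, 50 of 226 REs (22.1%) passed the edgeR test at an adjusted p of 0.05, 36 of them lower and 14 higher. The background was 24.1% of all REs, 13.9% lower and 10.2% higher, so the share of changed REs was close to that of the whole table. The median log2 fold change was 0.02 over the members and 0.02 over all REs. Changes of at least 2-fold were found in 11 members (4.87%), all lower, and in 4.49% of all REs, counted in either direction. In the plot of members by locus, the decreases reached much further from 0 than the increases. This was not particular to these loci. At the 4 lists of other genes counted below, log2 fold changes ran from -1.81 to 0.83 (further chondroitin genes) and -3.56 to 1.00 (donor supply). They ran from -2.21 to 1.06 at the heparan sulfate branch and from -3.31 to 1.33 at the core proteins.

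**Figure D1:**
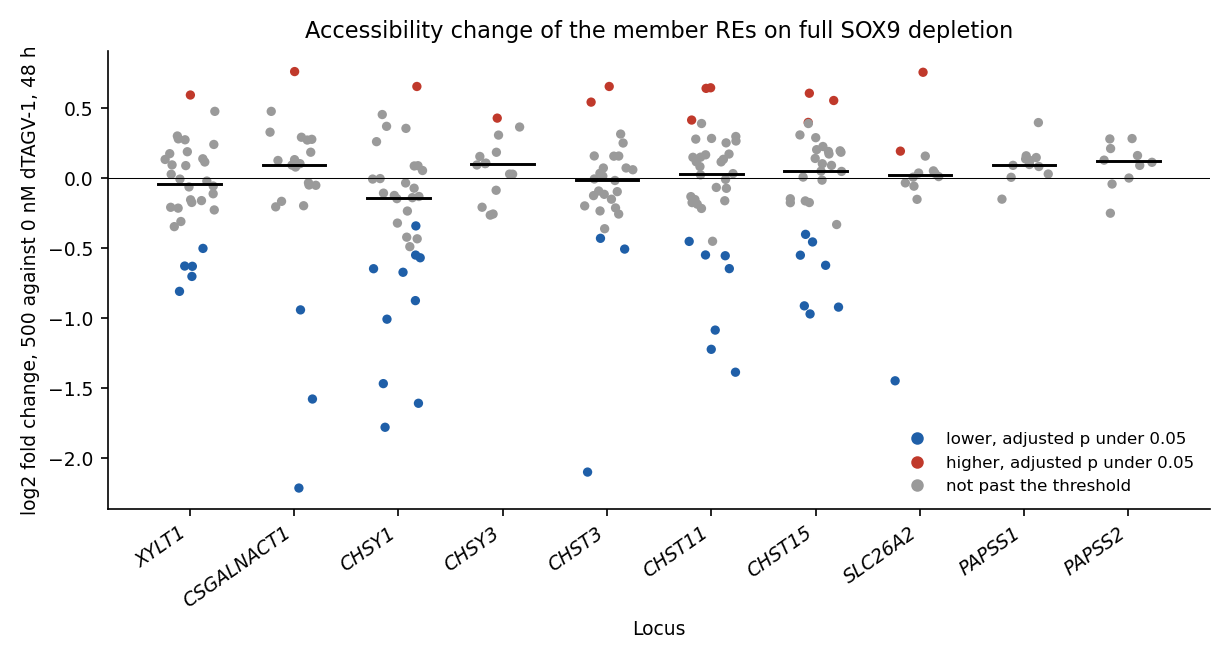
Each point is 1 of the 226 member REs, placed by locus (x axis) and by its log2 fold change at 500 against 0 nM dTAGV-1 after 48 h (y axis, 7 samples per group), with a bar at the median of the locus. Decreases extend to -2.21, at CSGALNACT1, while the highest increase is 0.76, and no point of PAPSS1 or PAPSS2 is past the threshold.

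By role, the counts were as follows. Of the 99 REs at the enzymes that start and build the chain (XYLT1, CSGALNACT1, CHSY1 and CHSY3), 18 were lower (18.2%) and 4 higher (4.04%). Of the 94 at the sulfotransferases (CHST3, CHST11 and CHST15), 17 were lower (18.1%) and 8 higher (8.51%). Of the 33 at the genes for sulfate entry and activation, 1 was lower (3.03%) and 2 were higher (6.06%), all at SLC26A2. Over all REs 13.9% were lower and 10.2% higher, which is also the background for the counts per gene below. At PAPSS1 and PAPSS2 0 of 21 REs passed the threshold in the edgeR test, with log2 fold changes from -0.25 to 0.40. These shares were not compared by a test.

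Promoters of the pathway genes changed little. Of the 21 REs within 1,000 bp of a start site of their own gene, 1 was called at 500 nM (4.76%), against 15.2% of all promoter REs, and all 21 lay between -0.20 and 0.40 on the log2 scale. The most accessible promoter RE of XYLT1 (XYLT1-RE5, chr16:17470798-17471659) changed by -0.01 (SE 0.10), that of CSGALNACT1 (CSGALNACT1-RE6, chr8:19757246-19758155) by 0.08 (SE 0.07), that of CHSY1 (CHSY1-RE15, chr15:101250268-101251226) by -0.03 (SE 0.09) and that of CHSY3 (CHSY3-RE3, chr5:129904002-129904751) by 0.10 (SE 0.08). For CHST3 (CHST3-RE12, chr10:71963893-71964670) the value was 0.16 (SE 0.11), and for CHST11 (CHST11-RE8, chr12:104456177-104457066) it was -0.01 (SE 0.06). None of these passed the edgeR threshold, nor did the promoters of SLC26A2, PAPSS1 and PAPSS2, at 0.01, 0.01 and 0.00.

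The promoter RE of SLC26A2 (SLC26A2-RE4, chr5:149960397-149960897) was the most open per length, with 89.1 ± 11.3 CPM per kb at 0 nM (SD, n = 7), followed by that of PAPSS1 (PAPSS1-RE5, chr4:107719446-107720724) with 55.7 ± 10.6. The promoters of CHST11 and CHSY3 held 35.4 ± 8.70 and 26.5 ± 10.2 CPM per kb, which overlap within their SDs. Those of CSGALNACT1, PAPSS2 (PAPSS2-RE8, chr10:87659555-87660389), CHSY1 and CHST3 lay close together, from 14 ± 4.79 to 19.3 ± 2.79. CHST15 and XYLT1 were lowest, with 9.85 ± 4.09 and 7.39 ± 1.06 CPM per kb.

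The exception was CHST15, whose promoter RE rose. CHST15-RE10 (chr10:124092120-124093113, over an untranslated region) held 4.31 CPM in the lowest, 10.1 in the median and 16.1 in the highest sample at 0 nM, and 9.09, 10.8 and 17.0 at 500 nM. The ranges overlapped, but all 7 replicates were higher at 500 nM. The log2 fold change was 0.40 (SE 0.12, edgeR adjusted p = 0.0192). Without replicate S9CC47_R8 the change was 0.29 and the adjusted p 0.102. Its WT change at 48 h was 0.26 (SE 0.14), and the difference between the genotypes was 0.17 (SE 0.22, edgeR adjusted p = 0.755).

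Among the enzymes that build the chain, the strongest loss was inside CSGALNACT1. CSGALNACT1-RE11 (chr8:19653142-19653642), in an intron 104,637 bp downstream of the gene's 5′ end, held 0.684, 1.15 and 1.64 CPM in the lowest, median and highest sample at 0 nM, and 0.0901, 0.267 and 0.326 at 500 nM. Every sample at 500 nM lay below every sample at 0 nM. The log2 fold change was -2.21 (SE 0.25, edgeR adjusted p = 1.50e-07), on a mean of 52.9 and 9.86 counts per sample.

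A neighbour in the same intron region moved with it. CSGALNACT1-RE10 (chr8:19662654-19663154) went from 0.659, 1.04 and 1.6 CPM at 0 nM to 0.159, 0.316 and 0.906 at 500 nM. The log2 fold change was -1.58 (SE 0.27, edgeR adjusted p = 9.30e-05). It was lower in 7 of 7 replicates although the ranges overlapped. At CSGALNACT1 as a whole 3 of 21 REs were lower and 1 was higher, CSGALNACT1-RE15 (chr8:19539585-19540085, intronic), which rose from 0.432, 0.587 and 1.23 CPM to 0.848, 1.02 and 1.93 (log2 fold change 0.76, SE 0.18, edgeR adjusted p = 0.00311). Summed over its 21 REs, the locus held 114 ± 10.0 CPM at 0 nM and 114 ± 10.8 at 500 nM (SD, n = 7).

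At CHSY1, a polymerase of the chain, the decreases lay in a cluster beyond the 3′ end of the gene. Of the 14 REs downstream of the gene body 8 were lower and 0 higher, with 0 of 4 in the body and 2 lower and 1 higher of 14 upstream. Over all REs 13.9% were lower and 10.2% higher. Summed over its 32 REs, the locus fell from 221 ± 16.3 to 172 ± 15.1 CPM (SD, n = 7), lower in 7 of 7 replicates, the largest change of a sum among the 10 loci (mean log2 ratio -0.36 ± 0.12). For the REs named next, the nearest protein-coding start site is that of LRRK1, a kinase gene, and which gene they act on was not measured.

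The most open of these was CHSY1-RE31 (chr15:101091484-101091984), 160,314 bp from the 5′ end of CHSY1 and 27,068 bp from the start of LRRK1. It held 24.8, 33.4 and 49.8 CPM in the lowest, median and highest sample at 0 nM and 9.47, 10.9 and 17.0 at 500 nM, with no overlap between the groups. Its log2 fold change of -1.47 (SE 0.08) had the smallest p of all members (edgeR adjusted p = 7.44e-13).

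CHSY1-RE27 (chr15:101115404-101116483) went from 4.80, 7.54 and 8.57 CPM to 1.62, 2.25 and 3.16, a log2 fold change of -1.61 (SE 0.11, edgeR adjusted p = 4.18e-11). CHSY1-RE29 (chr15:101108145-101108645) went from 1.06, 1.25 and 2.10 CPM to 0.227, 0.484 and 0.580 (log2 fold change -1.78, SE 0.21, edgeR adjusted p = 3.13e-07). In both, the samples at 500 nM lay entirely below those at 0 nM. CHSY1-RE4 (chr15:101318807-101319307), upstream of CHSY1 in the gene PCSK6, rose from 0.690, 0.928 and 1.05 CPM to 0.942, 1.41 and 2.28 (log2 fold change 0.66, SE 0.19, edgeR adjusted p = 0.0107). That increase was 0.48, with an adjusted p of 0.0601, without replicate S9CC47_R5.

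XYLT1, which starts the linker, had 5 lower and 1 higher of 32 REs, and all 5 lower REs were in the gene body. XYLT1-RE18 (chr16:17354394-17354894, overlapping an exon) was among the most open, with 24.9, 31.2 and 57.1 CPM at 0 nM in the lowest, median and highest sample, and 10.6, 20.0 and 43.3 at 500 nM. The ranges overlapped widely, yet 7 of 7 replicates were lower, with a log2 fold change of -0.63 (SE 0.10, edgeR adjusted p = 1.98e-05). In WT cells XYLT1-RE18 was also lower at 500 nM after 48 h, from 47.9 to 39.8 CPM in R8 and from 60.5 to 56.4 in RSh. At 48 h 0 of the 32 REs at XYLT1 passed the edgeR test of the difference between the genotypes. The increase, at XYLT1-RE1 (chr16:17566605-17567105, upstream, with its near edge 95,645 bp from the start site), was from 0.563, 0.777 and 1.00 CPM to 0.524, 1.36 and 2.21 (log2 fold change 0.59, SE 0.19, edgeR adjusted p = 0.0267). It lost its call without S9CC47_R5 (0.43, adjusted p 0.130) or without S9CC13_R14 (0.58).

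CHSY3, the paralogue of CHSY1, had 0 lower and 1 higher of 14 REs. CHSY3-RE8 (chr5:129963262-129963762, intronic) held 2.21, 3.62 and 5.34 CPM at 0 nM and 3.15, 4.86 and 5.65 at 500 nM, a log2 fold change of 0.43 (SE 0.13, edgeR adjusted p = 0.0138) that was higher in 6 of 7 replicates.

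**Figure D2:**
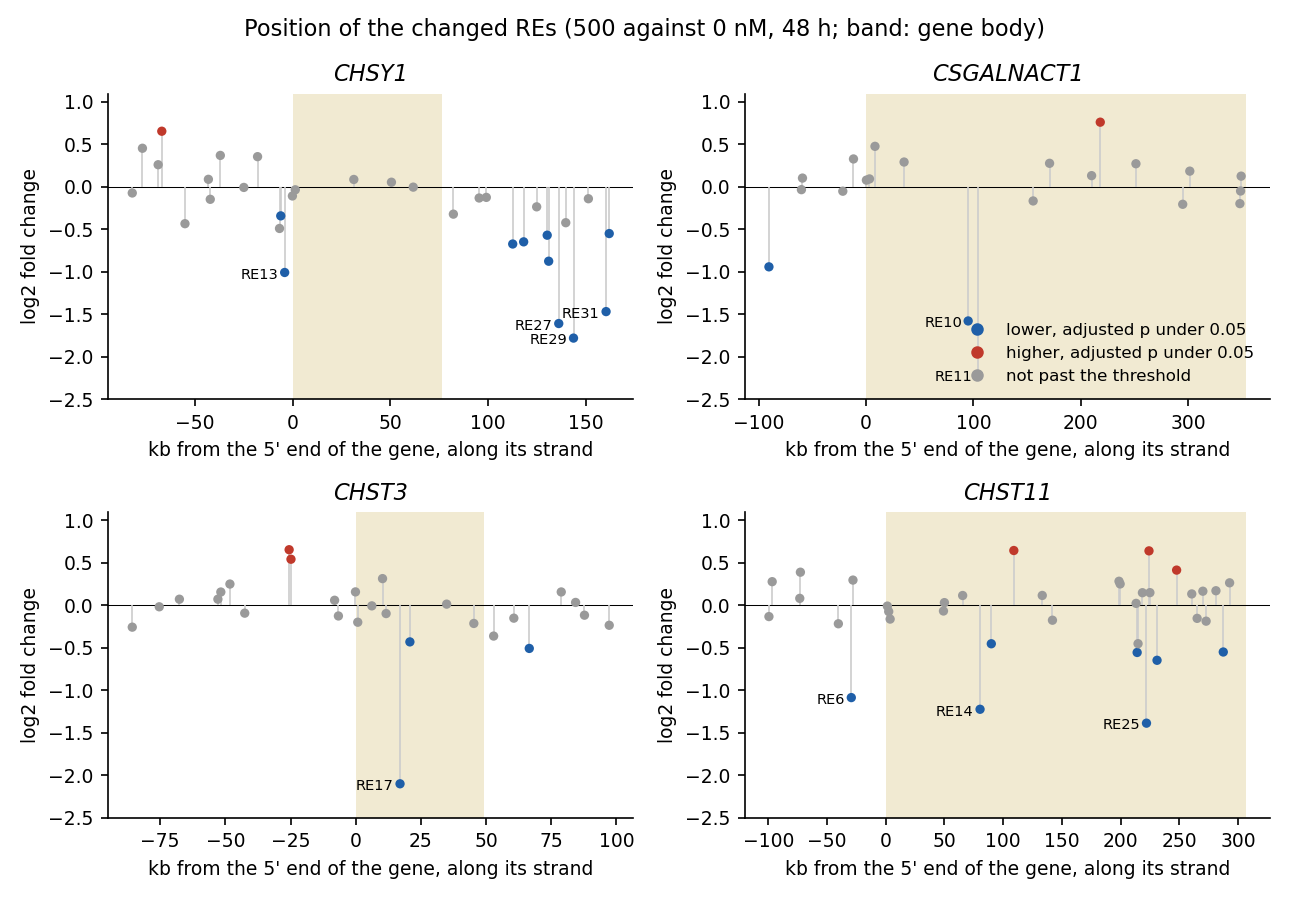
Log2 fold change at 500 against 0 nM after 48 h (y axis) of the REs at CHSY1, CSGALNACT1, CHST3 and CHST11 by distance in kb from the 5′ end of the gene along its strand (x axis), with the gene body shaded and REs below -1 labelled. The decreases at CHSY1 gather beyond the gene body, where 8 of 14 REs were lower, while those of CSGALNACT1, CHST3 and CHST11 with the largest change lie mostly inside the gene.

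Among the sulfotransferases, CHST3, the 6-O enzyme, held the RE with the sharpest fall. CHST3-RE17 (chr10:71981127-71981627), in an intron 16,982 bp downstream of the 5′ end, held 4.36, 7.12 and 9.45 CPM in the lowest, median and highest sample at 0 nM, and 1.13, 1.51 and 2.01 at 500 nM. The groups did not overlap. The log2 fold change was -2.10 (SE 0.12, edgeR adjusted p = 8.30e-13), and it was -1.89 ± 0.20 (SD, n = 4) in S9CC13 and -2.16 ± 0.07 (SD, n = 3) in S9CC47, computed per replicate with 0.1 CPM added.

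Upstream of CHST3 a small peak rose: CHST3-RE9 (chr10:71939292-71939792) went from 0.685, 1.39 and 1.90 CPM to 1.29, 1.75 and 2.93, higher in 7 of 7 replicates (log2 fold change 0.54, SE 0.15, edgeR adjusted p = 0.00999). In all 3 of 27 REs at CHST3 were lower and 2 higher.

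CHST11, the 4-O enzyme, had 7 lower and 3 higher of 36 REs. CHST11-RE14 (chr12:104535328-104535828), in an intron 80,283 bp from the 5′ end, held 6.39, 10.3 and 17.8 CPM at 0 nM and 3.07, 4.64 and 6.59 at 500 nM. Only the margins of the groups overlapped, and the log2 fold change was -1.22 (SE 0.14, edgeR adjusted p = 1.70e-07). The 2 clones gave -0.93 ± 0.25 (SD, n = 4, S9CC13) and -1.53 ± 0.16 (SD, n = 3, S9CC47), a difference that was not tested.

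CHST11-RE6 (chr12:104425667-104426167), upstream of CHST11 with its near edge 29,128 bp from a start site, went from 5.54, 9.50 and 17.8 CPM to 2.10, 4.78 and 8.04, lower in 7 of 7 replicates (log2 fold change -1.08, SE 0.10, edgeR adjusted p = 3.76e-09). CHST11-RE25 (chr12:104677086-104677586, intronic) was a weak RE, with 0.368, 0.958 and 1.25 CPM at 0 nM and 0.0901, 0.253 and 1.09 at 500 nM (log2 fold change -1.39, SE 0.28, edgeR adjusted p = 0.000482). The value of 1.09 came from S9CC47_R5, and without that replicate the change was -1.75. CHST11-RE29 (chr12:104702751-104703251, intronic) rose from 2.57, 3.84 and 5.35 CPM to 3.68, 5.54 and 6.73, in 7 of 7 replicates (log2 fold change 0.42, SE 0.11, edgeR adjusted p = 0.00498).

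CHST15 had 7 lower and 3 higher of 31 REs. CHST15-RE18 (chr10:124057532-124058032), in an intron, fell from 2.2, 4.32 and 5.68 CPM to 1.26, 2.21 and 2.74, in 7 of 7 replicates with overlapping ranges (log2 fold change -0.91, SE 0.13, edgeR adjusted p = 1.02e-05). CHST15-RE27 (chr10:123979954-123980454), beyond the 3′ end and nearest the start of CPXM2, rose from 2.07, 4.00 and 6.44 CPM to 3.50, 5.63 and 7.1, in 7 of 7 replicates (log2 fold change 0.56, SE 0.13, edgeR adjusted p = 0.00312).

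For sulfate entry, the REs near SLC26A2 moved in both directions. SLC26A2-RE2 (chr5:149941238-149941738) lies upstream, with its near edge 19,020 bp from a start site of SLC26A2 but 3,055 bp from a start site of PDE6A, a phosphodiesterase gene of photoreceptors. It held 0.526, 1.09 and 1.86 CPM at 0 nM and 0.25, 0.404 and 1.16 at 500 nM, lower in 6 of 7 replicates, with a log2 fold change of -1.45 (SE 0.26, edgeR adjusted p = 0.000150). SLC26A2-RE8 (chr5:150019660-150020643), in the gene HMGXB3, rose from 0.904, 1.99 and 4.24 CPM to 1.74, 3.65 and 7.03, in 7 of 7 replicates. Its log2 fold change of 0.76 (SE 0.12, edgeR adjusted p = 3.78e-05) was nearly the same as that of CSGALNACT1-RE15, the highest among members.

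Other genes of the pathway were counted by the same position rule. Of 341 REs at 15 further chondroitin genes 42 were lower and 22 higher at 500 nM, with 10 lower of 25 at UST, a uronic acid sulfotransferase, and 0 called of 18 at CHPF2, 5 at CHST7 and 19 at CHST14. At 7 genes for sulfate and sugar donor supply 17 of 107 were lower and 5 higher, including 8 lower of 32 at SLC35B2, a PAPS transporter. At 10 core protein genes the count was 36 lower and 15 higher of 232. The heparan sulfate branch, which shares the linker, had 74 lower and 43 higher of 484. The shares called were 18.8%, 20.6%, 22.0% and 24.2%, near or below the 24.1% of all REs, and the medians of the 4 lists lay between -0.03 and 0.02 on the log2 scale, against 0.02 for all REs.

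Intermediate doses were compared next, to ask how far accessibility at these loci followed partial loss of SOX9. All doses share the 0 nM samples, so their calls are not independent. At 16 nM 40 members were called, 28 lower and 12 higher (17.7%, background 16.2%), and at 5 nM 12 were called, 11 lower and 1 higher (5.31%, background 5.32%). Samples with the same clone and differentiation deviated together, and with the replicate as block 59 members passed at 500 nM (40 lower and 19 higher), 54 at 16 nM and 20 at 5 nM. The background shares are from the fits without this block. They cannot be set beside the counts with it, which therefore do not show whether the members exceeded the whole table. In the fits without the block, leaving out S9CC47_R8 gave 26 calls at 16 nM and 6 at 5 nM. Leaving out S9CC47_R5 gave 28 and 7, and leaving out S9CC47_R6 gave 46 and 23. The 5 nM sample of S9CC47_R6 stood apart at several promoter REs, with 100 CPM in PAPSS1-RE5 against 63.1 at 0 nM. At 1.6 nM 0 members passed the edgeR test without the block (background 0.0383%), and at 0.5 nM 0 passed (background 0.00%). At an unadjusted p under 0.05 there were 8 members and 7809 of all 151,457 REs at 1.6 nM, and 13 members and 5219 of all REs at 0.5 nM. Left out in turn, S9CC13_R6 gave 4 calls at 0.5 nM and 1 at 1.6 nM, and S9CC47_R6 gave 2 at 1.6 nM.

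With the replicate as block, 2 members passed at 1.6 nM, the dose that leaves about 51.7% of SOX9, and both were also called lower at 5, 16 and 500 nM. CHST3-RE17 changed by -0.55 (SE 0.09, edgeR adjusted p = 0.000333) and SLC26A2-RE2 by -0.79 (SE 0.17, edgeR adjusted p = 0.00839). The share of all REs that passed with the block is not given here, so the 2 calls describe these REs and not the members as a set. DESeq2 called CHST3-RE17 alone at that dose. Without the block their edgeR adjusted p-values were 0.0744 and 0.162. The samples of CHST3-RE17 at 1.6 nM held 3.06, 4.37 and 7.76 CPM in the lowest, median and highest, lower than 0 nM in 7 of 7 replicates though the ranges overlapped, and those of SLC26A2-RE2 held 0.403, 0.721 and 1.36.

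The REs took different courses between 0 and 500 nM. CHST3-RE17 had completed 39.2% ± 17.3 of its 500 nM change at 1.6 nM and 72.2% ± 9.45 at 5 nM (SD, n = 7), and CHSY1-RE31 8.81% ± 5.92 and 40.7% ± 12.4. A straight line in SOX9 level gives 48.8% and 74.9% at these doses. CSGALNACT1-RE11 stood at 3.24% ± 34 after 1.6 nM, then at 61.1% ± 15.2 after 5 nM, and had reached 107% ± 16.8 after 16 nM. In XYLT1-RE18 the 16 nM samples held 17.4, 27.6 and 52.0 CPM (log2 fold change -0.15, edgeR adjusted p = 0.163), and the change was seen only at 500 nM. The shares are descriptive, since all of them use the same 0 and 500 nM samples.

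For the 36 members lower at 500 nM, the median share over REs was taken in each replicate. Its mean over replicates was 7.58% ± 13.8 with 0.5 nM and 18.9% ± 10.1 with 1.6 nM (SD, n = 7 replicates). With 5 nM it was 47.1% ± 9.70, and with 16 nM 72.1% ± 15.9. For the 14 that were higher it was 8.14% ± 12.4, 18.5% ± 13.5, 40.0% ± 12.6 and 60.6% ± 17.7. Over all REs the corresponding shares at 1.6 nM were 18.7% ± 7.74 for lower and 16% ± 5.8 for higher REs, within the spread of the members.

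**Figure D3:**
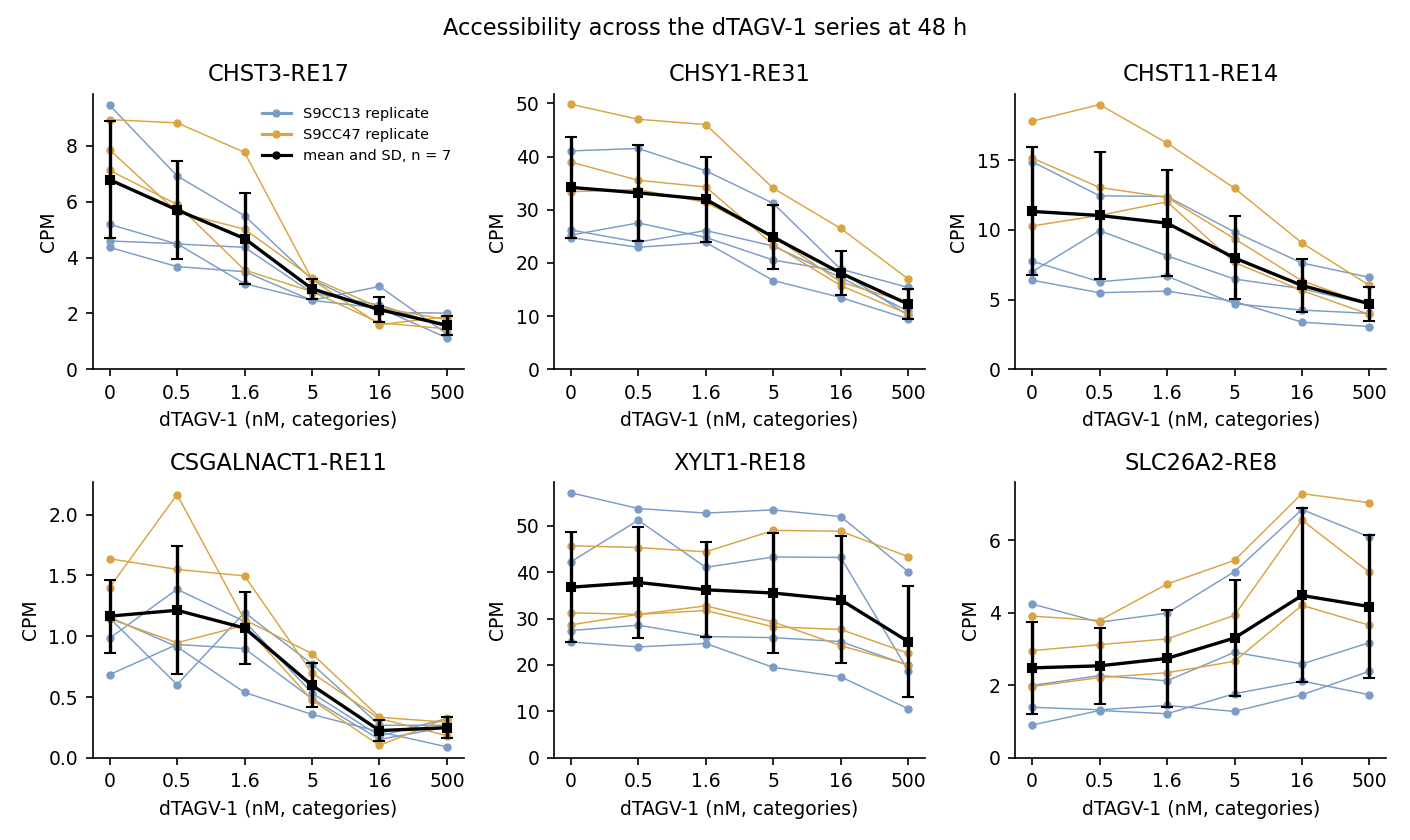
CPM of 6 member REs (y axis, from 0) at each dTAGV-1 dose after 48 h (x axis, doses as categories), with a line for each of the 7 replicates coloured by clone and black squares for the mean with SD. The mean of CHST3-RE17 declines from the lowest doses, those of CHSY1-RE31 and CHST11-RE14 mainly from 5 nM, CSGALNACT1-RE11 is as low at 16 as at 500 nM, XYLT1-RE18 drops at 500 nM and SLC26A2-RE8 is highest at 16 nM.

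The time course asked which REs responded soon after the start of depletion. Both times share the 24 h vehicle samples, and each group held 2 samples. At 3 h of 500 nM 19 members were called in SOX9-tagged cells, 18 lower and 1 higher (8.41%, background 8.34%, with 7.43% lower and 0.912% higher). At 24 h 33 were called, 26 lower and 7 higher (14.6%, background 14.6%, with 9.93% lower and 4.70% higher). The counts fell to 8 at 3 h and 11 at 24 h without R4, and to 12 and 21 without R5, with the spread then estimated from the remaining samples of all 3 groups.

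Of the 18 members lower at 3 h, 16 (88.9%) were also lower at 48 h in the separate samples of the dose series, and these were 44.4% of the 36 lower at 48 h. Over all REs the shares were 81.2% and 43.3%. They were 3 REs each at CSGALNACT1, CHSY1 and CHST11, 2 each at XYLT1, CHST3 and CHST15, and SLC26A2-RE2. The 2 others were CHST11-RE33 and CHSY3-RE10, an intronic RE of CHSY3 named after its values were seen (log2 fold change -1.29 at 3 h, edgeR adjusted p = 0.00542, and -0.26 at 48 h, edgeR adjusted p = 0.487). Of the 14 members higher at 48 h 0 were called higher at 3 h in the edgeR test, against 1.61% of the higher REs in the whole table. The member called higher at 3 h was CHST15-RE25, beyond the 3′ end of CHST15 (log2 fold change 0.47, SE 0.14, edgeR adjusted p = 0.0342), which changed by 0.05 at 48 h.

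**Figure D4:**
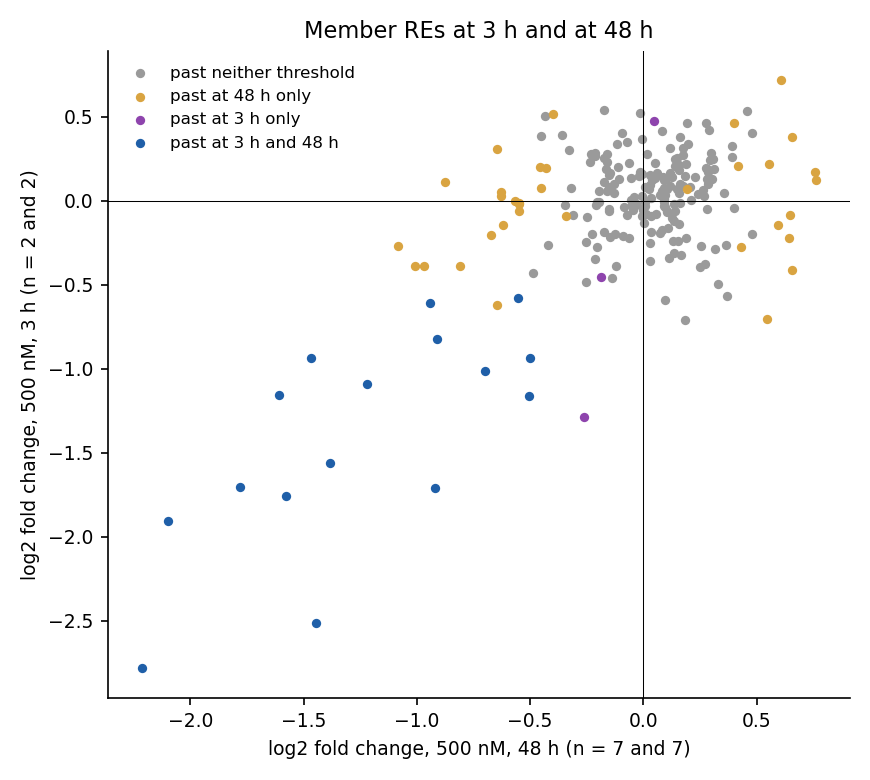
Log2 fold change of the 226 member REs at 500 nM after 3 h (y axis, 2 against 2 samples) against that after 48 h (x axis, 7 against 7 samples), coloured by which comparison passed the threshold. The 16 REs lower in both lie in the lower left, while the REs that were higher at 48 h scatter around 0 at 3 h.

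The leading REs had lost much of their accessibility by 3 h. CHST3-RE17 held 15.7 and 10.6 CPM with vehicle in R4 and R5, 4.15 and 3.14 after 3 h and 2.02 and 2.67 after 24 h, so every treated sample was below both vehicle samples. The log2 fold change was -1.91 (SE 0.18, edgeR adjusted p = 3.54e-07) at 3 h and -2.53 (SE 0.19, edgeR adjusted p = 1.02e-08) at 24 h. CSGALNACT1-RE11 went from 3.11 and 1.24 CPM to 0.444 and 0.201 after 3 h and 0.155 and 0.147 after 24 h (log2 fold change -2.78 and -3.86, edgeR adjusted p = 4.81e-06 and 2.02e-07).

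CHSY1-RE31 held 43.4 and 54.6 CPM with vehicle, 20.9 and 33.8 after 3 h and 18.7 and 33.7 after 24 h. It fell within each differentiation, by a larger share in R4 than in R5 (log2 fold change -0.94 and -1.01, edgeR adjusted p = 9.66e-07 and 2.41e-07). In CHST11-RE14 the values were 19.7 and 12 CPM with vehicle, 8.90 and 6.43 after 3 h and 6.56 and 5.38 after 24 h (log2 fold change -1.09 and -1.44, edgeR adjusted p = 5.05e-06 and 1.23e-07). CHST15-RE18 held 7.03 and 4.09 CPM, then 3.95 and 2.57, then 3.72 and 2.62, and its groups did not overlap either. SLC26A2-RE2 fell from 4.25 and 3.79 CPM to 0.866 and 0.621 and to 0.574 and 0.498 (log2 fold change -2.51 and -2.96, edgeR adjusted p = 1.81e-07 and 1.89e-08).

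Other REs were called only at later times. CHST11-RE6 held 15.1 and 6.80 CPM with vehicle and 11.7 and 6.68 after 3 h (log2 fold change -0.27, SE 0.13, edgeR adjusted p = 0.294), and 7.36 and 4.24 after 24 h (-0.93, SE 0.13, edgeR adjusted p = 4.90e-05). XYLT1-RE18 held 44.5 and 30.9 CPM with vehicle, 49.9 and 32.6 after 3 h and 45.4 and 27.8 after 24 h, and edgeR adjusted p-values of 0.804 and 0.349. The increase of CHST15-RE10 was past the threshold at 24 h, from 4.03 and 4.22 CPM to 6.11 and 7.41 (log2 fold change 0.65, edgeR adjusted p = 0.00389), and PAPSS1-RE5 and CHST3-RE12 were also higher at that time (0.32 and 0.48, edgeR adjusted p = 0.00319 and 0.0387). At 500 nM for 48 h neither was called, and at 16 nM PAPSS1-RE5 was lower (-0.18, edgeR adjusted p = 0.0401).

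CHST11-RE33, the member with facing cores, was called lower at 3 h and 24 h but not at 48 h, and the difference between these times was not tested. It held 14.2 and 13 CPM with vehicle, 10.0 and 10.7 after 3 h (log2 fold change -0.45, SE 0.11, edgeR adjusted p = 0.0136) and 11.4 and 10.9 after 24 h (-0.35, edgeR adjusted p = 0.0446). In the dose series it held 6.64, 11.9 and 19.1 CPM in the lowest, median and highest sample at 0 nM and 5.97, 11.5 and 14.9 at 500 nM (log2 fold change -0.18, SE 0.10, edgeR adjusted p = 0.208). At 3 h the difference from WT did not pass the threshold (edgeR adjusted p = 0.0566).

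WT cells show what dTAGV-1 does where SOX9 has no tag. Of the 226 members 0 were called in WT at 3 h, 24 h or 48 h in the edgeR test, and DESeq2 also called 0. The background was 0.00% of all REs at 3 h and 24 h and 0.303% at 48 h. At an unadjusted p under 0.05 there were 7, 18 and 16 members at 3 h, 24 h and 48 h, and 3656, 4642 and 12,537 of all 151,457 REs. In WT, CHST3-RE17 held 15.7 and 13.7 CPM with vehicle, 15.9 and 13.1 after 3 h and 15.9 and 12.3 after 24 h, and 5.54 and 6.47 at 0 nM against 6.06 and 7.34 at 500 nM after 48 h. CSGALNACT1-RE11 in WT held 3.80 and 1.54 CPM with vehicle, 3.77 and 1.66 after 3 h and 3.52 and 1.75 after 24 h. In the 48 h samples it was higher at 500 nM in both WT replicates, with 1.53 and 1.74 CPM at 0 nM and 2.34 and 2.07 at 500 nM (log2 fold change 0.43, SE 0.18, edgeR adjusted p = 0.437).

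The difference between the genotypes was itself past the threshold for 24 members at 48 h, 22 with the lower effect in SOX9-tagged cells (10.6%, background 10.8%). At 3 h it was for 14 members, all with the lower effect in SOX9-tagged cells (6.19%, background 5.2%), and at 24 h for 15, again all lower (6.64%, background 6.73%). The shares over all REs are for either direction. At 3 h and 24 h the lower direction was not particular to the members. At 3 h all calls were also lower at the further chondroitin genes (11), donor supply (6), heparan sulfate branch (16) and core proteins (9). At 24 h 17 of 18, 6 of 6 and 21 of 23 were lower at the first 3 of these lists. At 48 h the lists varied, with 21 of 28 calls lower at the further chondroitin genes and 9 of 12 at donor supply. The heparan sulfate branch had 27 of 47 lower and the core proteins 20 of 23. The difference was -2.24 (SE 0.18, edgeR adjusted p = 1.21e-10) for CHST3-RE17, -1.34 (SE 0.13, edgeR adjusted p = 5.00e-09) for CHSY1-RE31 and -2.62 (SE 0.35, edgeR adjusted p = 1.84e-06) for CSGALNACT1-RE11 at 48 h. Of the increases named above, that of SLC26A2-RE8 passed this test (0.76, SE 0.21, edgeR adjusted p = 0.0133), and no other named increase did. With 1 of the 2 WT replicates at 48 h left out, R8 or RSh, 11 or 13 members passed, the lone sample being taken to vary like the tagged ones. At 3 h the count was 6 without tagged R4 and 9 without WT R5, and at 24 h it was 9 without WT R4.

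**Figure D5:**
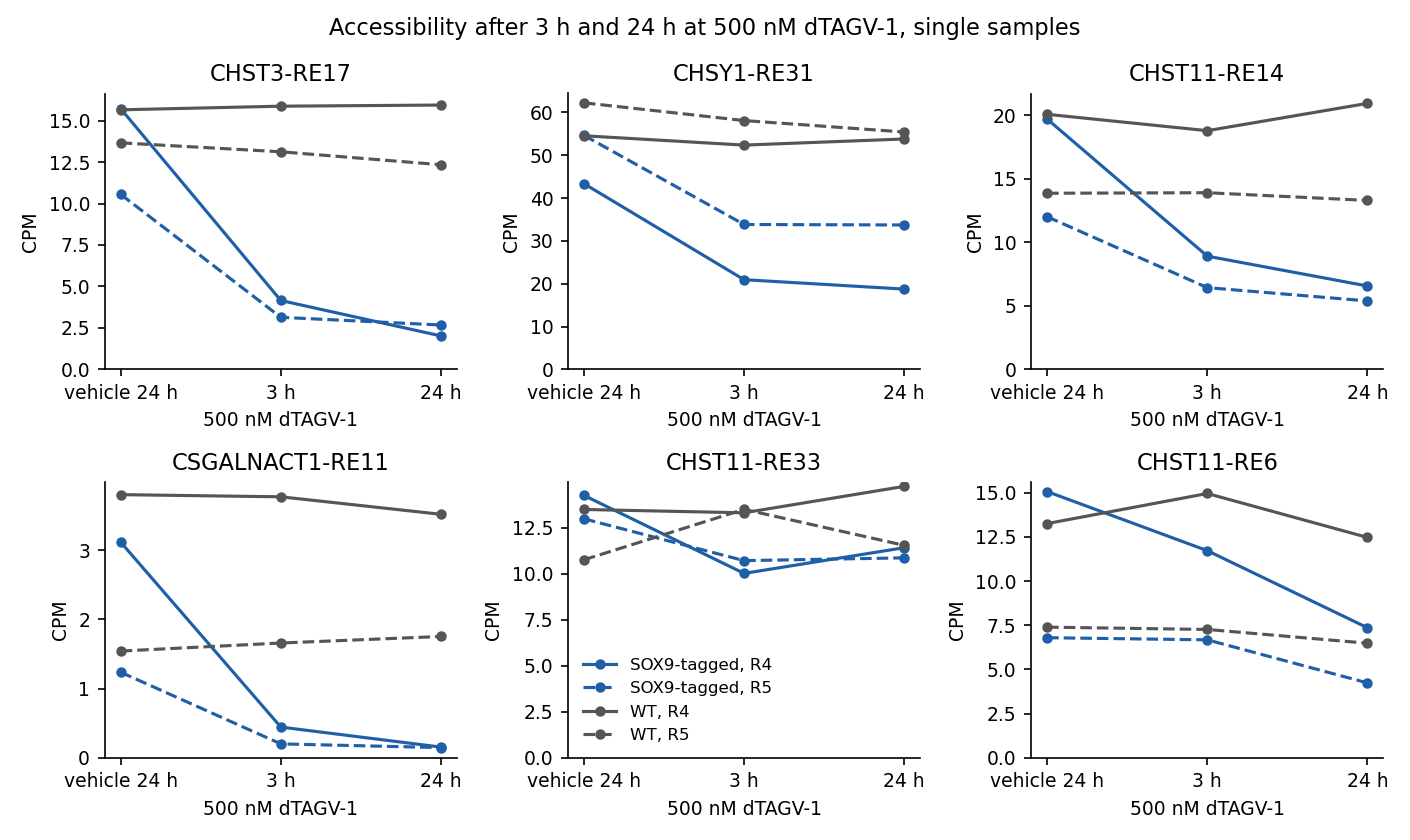
CPM of 6 member REs (y axis, from 0) with vehicle for 24 h and with 500 nM dTAGV-1 for 3 h and 24 h (x axis), with a line per differentiation, blue for SOX9-tagged and grey for WT cells. CHST3-RE17, CHSY1-RE31, CHST11-RE14 and CSGALNACT1-RE11 drop by 3 h in SOX9-tagged cells while the WT lines stay level, CHST11-RE33 moves little, and CHST11-RE6 drops between 3 h and 24 h.

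SOX9-tagged and WT cells were also compared without dTAGV-1, within differentiations R4, R5 and R8, to see whether the tag itself goes with a difference. In this test 2 of 226 members passed (0.885%, background 0.950%). CHSY3-RE8 was higher in tagged cells, with 3.98, 6.95 and 3.62 CPM against 3.20, 3.38 and 1.59 in WT (log2 fold change 0.86, SE 0.16, edgeR adjusted p = 0.0112). SLC26A2-RE2 was lower, with 4.25, 3.79 and 0.989 CPM against 7.23, 8.37 and 0.993 (log2 fold change -0.73, SE 0.16, edgeR adjusted p = 0.0358), and in R8 the values were nearly equal. Untreated WT cells of R8 are labelled with 115% of SOX9 against 100% in tagged cells, and those of R4 and R5 carry no such label. Tag, clone and SOX9 level cannot be told apart here. The count was 9 without R4, 1 without R5 and 3 without R8. Without R5 neither CHSY3-RE8 nor SLC26A2-RE2 was called, the 1 call being CHST15-RE6, and DESeq2 called CHSY3-RE8 but not SLC26A2-RE2.

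For the member with the largest change, CSGALNACT1-RE11, the REs outside the 10 loci with the most similar course were sought by Pearson correlation of log2 CPM over the 42 samples of the dose series. They were nearest to MTUS1 (r = 0.933), DIAPH1 (r = 0.927) and ZFPM2 (r = 0.924), and fell by 3.02, 5.06 and 1.78 on the log2 scale at 500 nM. These points share libraries and the same dose groups, so the correlations describe the likeness only.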

How the data were processed

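ATAC-seq was measured in 58 samples of CNCCs. The authors deposited raw read counts per RE, made with Bowtie2 2.4.1, SAMtools 1.10, MACS2 2.2.7.1 and bedtools on hg38 as named in the submitters' processing notes. Values were analysed as deposited, with totals of 22,905,782 to 81,040,023 counts per sample. REs were assigned to genes by position with GENCODE v44. Fits used the quasi-likelihood test of edgeR 4.0.16 (R 4.3.3) with TMM scaling, no filter on low counts, Benjamini-Hochberg adjustment over all 151,457 REs and a threshold of 0.05. Differentiation batch was a covariate, except in the tests of genotype differences. Those were interaction terms, with replicate (clone and differentiation) as block at 48 h and genotype by differentiation as block in the time course. The SE beside an edgeR change is its absolute log2 fold change divided by the square root of its F statistic. CPM are TMM-scaled over all 58 samples, and per-replicate log2 changes used an offset of 0.1 CPM. A share of the 500 nM change is the change at a dose divided by that at 500 nM in the same replicate. For sets of REs the median over REs was taken in each replicate, then the mean and SD over replicates. The fit of 500 against 0 nM at 48 h was tested on simulated counts with known changes. These had a single fixed dispersion, no batch effect and no changes in REs with the lowest counts. The other fits were not tested in this way.

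Groups came from sample titles. For 1 differentiation (R14) the samples titled 0 and 0.5 nM carry each other's concentration label, while their SOX9 labels fit the titles, which set the groups. The time-course columns of tagged R5 name another clone than the titles, so clone was not used there. Across samples, deviations of the same replicate correlated with r of at least 0.171 in every pair, so numbers pair the samples. The value of 0.171 was at 5 nM, where the mean r was 0.707. The 5 nM sample of S9CC47_R6 held 34.0 CPM in CHSY3-RE3 and 100 in PAPSS1-RE5, against 14.8 and 63.1 at 0 nM in that replicate. It was the highest 5 nM sample there and in CHST3-RE12, CHST11-RE8, CHST15-RE10 and PAPSS2-RE8. In the promoter REs of XYLT1, CSGALNACT1, CHSY1 and SLC26A2 it was not the highest. The lowest r at each of the other doses was between 0.537 and 0.754. With the replicate as block the counts of members were 59 in place of 50 at 500 nM and 54 in place of 40 at 16 nM. They were 20 in place of 12 at 5 nM, 2 in place of 0 at 1.6 nM and 0 as before at 0.5 nM. Background shares were taken from the fits without the replicate block. Over 1653 pairs of samples the reduced chi-square of their counts was at least 1.95, so no library was counted as a duplicate. Replicates were separate differentiations or clones.

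The REs named are the most covered promoter RE of each gene, the lower and the higher RE with the smallest p per gene, the 10 with the largest called change, any called at 1.6 nM and any with facing cores. Members and lists were chosen with earlier results of these data known. Alternatives were DESeq2 1.42.0, its size factors, a filter on low counts, other batch terms, each replicate left out, a window of 50,000 bp and the gene's 5′ end alone as start site.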

Additional observations from a re-analysis of the deposited data

Results flagged for a closer look

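In 93 checks of 7 samples each for a single sample far from the others, 5 stood out. The checks share values and libraries, so this count cannot be compared with the 1 in 20 that chance gives for independent checks. The checks were of the 31 named REs at 0 nM, at 500 nM and in the change between them. Samples at the intermediate doses, S9CC47_R6 at 5 nM among them, were not part of these checks. CSGALNACT1-RE6 held 22.8 CPM in S9CC13_R10 at 0 nM, with the others between 15.4 and 18.3. CHST11-RE6 held 17.8 CPM in S9CC47_R8 at 0 nM, with the others between 5.54 and 10.7. At 500 nM, S9CC47_R5 held 1.16 CPM in SLC26A2-RE2 (others 0.25 to 0.541) and 1.09 in CHST11-RE25 (others 0.0901 to 0.315). The log2 change of CHST11-RE8 at 500 nM was -0.29 in S9CC13_R13 and between -0.03 and 0.14 in the others.

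The response to dTAGV-1 differed between SOX9-tagged and WT cells, by the interaction term of edgeR, in 24 members at 48 h (22 with the lower effect in tagged cells), in 14 at 3 h and in 15 at 24 h.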

How the results depend on the processing

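The count at 500 nM was 42 to 52 with single replicates left out. Other counts moved more: 26 to 54 at 16 nM, 6 to 23 at 5 nM, 0 to 2 at 1.6 nM, 0 to 4 at 0.5 nM, 8 to 12 at 3 h and 11 to 21 at 24 h. Genotype differences ranged from 11 to 13 at 48 h, 6 to 16 at 3 h and 9 to 17 at 24 h, and tagged against WT from 1 to 9. Without batch or replicate block the counts were 20 at 500 nM, 10 at 16 nM, 3 at 5 nM, 0 at 3 h, 2 at 24 h, 2, 1 and 2 for the genotype difference at 48 h, 3 h and 24 h, and 0 for tagged against WT. The replicate block gave 59 calls at 500 nM and 54 at 16 nM, with 20 at 5 nM and 2 at 1.6 nM. DESeq2 called 1 at 1.6 nM and 1 for tagged against WT, and its size factors gave 4 for the latter. The cause of these moves was not tested. Uncalled promoters changed sign around 0. XYLT1-RE5 was 0.0064 with DESeq2, 0.0054 with its size factors, 0.016 without batch and -0.0419 to 0.0703 with replicates left out, and CHST11-RE8 was 0.003, 0.0026 and -0.0273 to 0.0553 for the first, second and last of these. CHSY1-RE15 ranged from -0.0852 to 0.0051, SLC26A2-RE4 from -0.0139 to 0.0472, PAPSS1-RE5 from -0.0222 to 0.0529 and PAPSS2-RE8 from -0.0318 to 0.0742, and was -0.0042 without batch. Of the other values of named REs, 337 kept direction and side of the threshold and 14 lost the threshold. REs with few counts, such as CSGALNACT1-RE11, limit the precision of shares at low doses.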
